A study of Mus musculus with 6 samples.

Results

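The 10 genes of the interleukin-6 family described here were examined in kidney fibroblasts cultured with or without Th17 cells, the helper T cell type named for secreting interleukin-17. They were picked by gene symbol from a table of 34745 genes. The 10 members were the cytokines Il6, Il11, Lif and Clcf1, the receptor chains Il6st, Il6ra, Il11ra1, Lifr and Osmr, and the feedback inhibitor Socs3. All 10 had enough counts to be tested. The data came from primary renal fibroblasts of wild-type (WT) mice, grown out of digested kidney, as 3 libraries of lone cultures and 3 libraries of cocultures with Th17 cells. Fibroblasts adhered for 6 h before an insert with 0.4 μm pores, carrying the Th17 cells, was placed above them. Coculture lasted 24 h, and RNA came from the fibroblasts below the insert. The Th17 cells had been induced from CD4+ T cells in medium that contained interleukin-6 itself, beside interleukin-1β, interleukin-23 and an antibody to interferon-γ. The study's methods name Balb/c mice for its animal work without tying the cultured cells to that strain. Sex and age, whether lone cultures carried an empty insert, and whether libraries of a group came from separate cultures or animals were not stated. The p-values therefore measure the spread between these libraries, which may be technical.

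Cytokines of the interleukin-6 family signal through gp130, the shared receptor chain encoded by Il6st. Interleukin-6 and interleukin-11 first bind their own alpha chains, encoded by Il6ra and Il11ra1, and then draw in gp130. Leukemia inhibitory factor (Lif) signals through gp130 paired with the LIF receptor (Lifr), and oncostatin M through gp130 paired with Osmr. Both gp130 and the LIF receptor also form part of the receptor of cardiotrophin-like cytokine factor 1 (Clcf1). Receptor-bound Janus kinases then phosphorylate STAT3, which switches on Socs3, whose protein binds gp130 and dampens the signal. Fibroblasts are a well-known source of interleukin-6, and interleukin-17 is known to raise its production in stromal cells.

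The libraries held between 12050529 and 13209581 counts, so both groups were sequenced to a similar depth. Fibroblast marker genes were abundant, with a summed level of 36907 to 38674 CPM (read counts scaled to library size with TMM factors) in lone libraries and 15501 to 17431 CPM in cocultured libraries. Of 11 fibroblast markers tested, 9 were lower and 1 was higher with Th17 cells. Of all genes tested, 20% were lower and 17.1% higher, the shares that stand beside each marker list here. The 22 macrophage markers summed to between 69.7 and 75.2 CPM in lone libraries and between 21.7 and 23.3 CPM in cocultured libraries, and 9 of the 11 tested were lower. Adgre1, the F4/80 antigen of mouse macrophages, had a mean of 4.63 CPM alone and 0 counts in each cocultured library, and Cd163 had 0 counts in all libraries. Cd14 and Clec7a were tested and not called (adjusted p = 0.998 and 0.0845 in edgeR). Cd14 had 151, 140 and 127 counts alone and 129, 140 and 170 with Th17 cells. The 20 T cell markers summed to 9.63 to 10.1 CPM alone and 5.82 to 6.77 CPM with Th17 cells. Of these, 7 had 0 counts in all 6 libraries, including Il17a, Il17f and Cd3d. Of the 3 tested, only Lck was called, as lower, with 49, 68 and 59 counts alone and 33, 34 and 23 with Th17 cells. Trac and Icos were not called, and Trac had 20, 40 and 38 counts alone and 41, 27 and 38 with Th17 cells. The 10 epithelial markers summed to 19.2 to 21.1 CPM alone and 3.58 to 4.56 CPM with Th17 cells, with 2 of the 3 tested lower, and Umod and Slc34a1 at 0 counts in all libraries. The 10 endothelial markers summed to 124 to 132 CPM alone and 273 to 310 CPM after coculture. Flt1 made up most of these sums, with a mean of 117 CPM alone and 291 CPM after coculture. Kdr went from a mean of 5.55 to 0.127 CPM. Among the 4 tested, Flt1 was higher and Kdr lower, and Emcn had 0 counts in all libraries. The part of these markers in the results below was not tested. In such bulk cultures, fewer cells of a type and less RNA per cell cannot be told apart.

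To determine which parts of the family changed with Th17 cells, the 2 groups were compared by edgeR's quasi-likelihood test across 13088 genes. The cytokines Il11, Lif and Il6, the shared receptor gene Il6st and the inhibitor Socs3 were higher with Th17 cells. The receptor chains Osmr and Il11ra1 were lower. With an adjusted p below 0.05, 7 members were called, where 37.1% of all genes tested were called. Of these, 5 members were higher, where 17.1% of all genes tested were higher, and 2 were lower, where 20% were lower. Socs3, Il11 and Lif also exceeded a fold change of 2, the limit set in the study's methods. These 3 of 10 members stood beside 3.87% of all genes that were higher past the same limit and 11.6% past it in either direction. No member was lower past it, compared with 7.78% of all genes. The median log2 fold change of the 10 members was 0.50, beside 0.0038 for all genes tested. For 7 of the 10 members the lone and cocultured CPM ranges were separate, as in 50.4% of all genes tested.

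**Figure D1:**
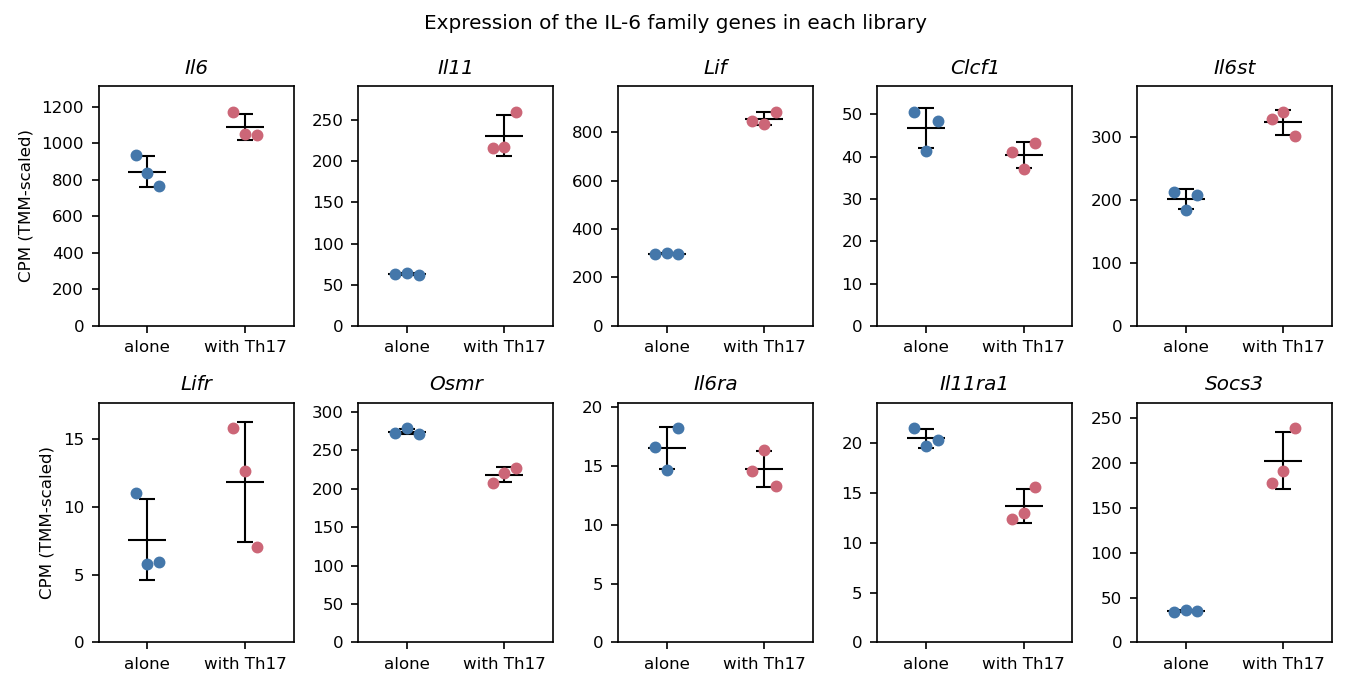
Expression of the 10 family genes in each library, as TMM-scaled CPM on axes that start at 0. Points are libraries, bars are the mean and SD of 3, and the groups do not overlap for Il6, Il11, Lif, Il6st, Osmr, Il11ra1 and Socs3.

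Socs3 showed the largest increase of the family. Socs3 (ENSMUSG00000053113, chromosome 11, 117966079 to 117970047, minus strand, protein-coding) encodes the suppressor that ends gp130 signalling and is itself a classical STAT3 target. It had 434, 459 and 416 counts in lone libraries and 2388, 2435 and 3134 counts in cocultured libraries. Every cocultured library lay far above every lone library, and the third cocultured library was the highest. That library also stood apart across genes, with a chi-square of counts per gene of 15.2 and 14.0 against the other cocultured libraries. Between those libraries the value was 8.50. The level rose from 35.1 ± 1.29 to 203 ± 32.0 CPM (SD, n = 3 each), or 5.78 times as high. This log2 fold change came to 2.53 (standard error 0.113, adjusted p = 3.18e-07 in edgeR), and only 0.703% of genes tested had a higher value.

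Il11, which encodes a cytokine that acts on stromal cells, was the most strongly raised ligand. Il11 (ENSMUSG00000004371, chromosome 7, 4772373 to 4782857, minus strand) had 816, 819 and 734 counts alone and 2900, 2771 and 3418 counts with Th17 cells. The lone libraries were tightly grouped, and the groups were clearly separate. Its level increased from 63.4 ± 1.32 to 231 ± 25.1 CPM (SD, n = 3 each; log2FC 1.87 with SE 0.0847, adjusted p = 3.59e-07 in edgeR), or 3.65-fold.

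Lif, known for keeping mouse embryonic stem cells undifferentiated and for its part in inflammation, followed closely. Lif (ENSMUSG00000034394, chromosome 11, 4257557 to 4272514, plus strand) had 3834, 3791 and 3485 counts alone and 11385, 10593 and 11616 counts after coculture. It was the least variable member, with an SD of 0.819% of the mean among lone libraries and 3.12% among cocultured libraries. Expression rose 2.87-fold, from 297 ± 2.44 to 855 ± 26.7 CPM (SD, n = 3 each; log2FC 1.52 with SE 0.0531, adjusted p = 8.71e-08 in edgeR).

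Il6 was already abundant in lone fibroblasts and increased modestly. Il6 (ENSMUSG00000025746, chromosome 5, 30013114 to 30019981, plus strand) had 12048, 10590 and 9032 counts alone and 15778, 13412 and 13750 counts with Th17 cells. On the CPM scale the lone libraries held 936, 837 and 764 and the cocultured libraries 1174, 1054 and 1047, so the groups did not overlap, although the highest lone library came near the lowest cocultured one. The change was 1.29-fold (log2FC 0.37 with SE 0.0821, 95% interval 0.18 to 0.55, adjusted p = 0.00694 in edgeR). Of all genes tested, 17.2% had a higher log2 fold change than Il6.

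Clcf1 was the ligand with no detected change. Clcf1 (ENSMUSG00000040663, chromosome 19, 4214238 to 4223490, plus strand) had 652, 524 and 572 counts alone and 552, 473 and 567 counts after coculture. The ranges overlapped, at 41.4 to 50.6 CPM and 37.2 to 43.2 CPM. The log2 fold change was −0.21 (standard error 0.0992, 95% interval −0.43 to 0.015, adjusted p = 0.131 in edgeR). An exon of Clcf1 overlaps another gene on its strand, so its counts are uncertain.

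The bases ahead of annotated start sites were read from the RefSeq promoter table on build GRCm38.p6. They are shown for Il6 and for the 3 genes past the fold change limit. Where a gene had several starts there, only the start nearest the upstream end of its deposited locus was used. Which start was used in these cultures was not measured. Of the 10 members, 9 had an entry in that table and Clcf1 had none. The 250 bases before the start were searched on both strands for 6 sequence motifs. The letters were TTCNNNGAA for STAT proteins, GGG followed by any 2 bases and TTTCC for NF-kB, TGANTCA for AP-1, TGACGTCA for the cyclic AMP response element, TTGCNNAA for C/EBP and TATAAA for the TATA box. No pattern is contained in another. Over 32851 promoters, 7.02% held the STAT letters, 1.41% the NF-kB letters, 6.75% the AP-1 letters, 1.55% the cyclic AMP letters, 9.56% the C/EBP letters and 12.4% the TATA letters. Each sequence below runs 5′ to 3′ towards its start site, with matches in capitals. They lie at chr5:30012864-30013113 (plus strand), chr11:4257318-4257567 (plus strand), chr11:117969367-117969616 (minus strand) and chr7:4782858-4783107 (minus strand). The Socs3 stretch lies inside the longer locus that the deposited table gives for that gene.
Il6: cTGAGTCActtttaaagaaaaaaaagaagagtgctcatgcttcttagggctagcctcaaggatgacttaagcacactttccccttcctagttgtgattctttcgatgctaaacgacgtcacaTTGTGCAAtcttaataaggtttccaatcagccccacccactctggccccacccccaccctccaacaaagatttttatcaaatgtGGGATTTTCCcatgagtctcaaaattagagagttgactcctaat
Lif: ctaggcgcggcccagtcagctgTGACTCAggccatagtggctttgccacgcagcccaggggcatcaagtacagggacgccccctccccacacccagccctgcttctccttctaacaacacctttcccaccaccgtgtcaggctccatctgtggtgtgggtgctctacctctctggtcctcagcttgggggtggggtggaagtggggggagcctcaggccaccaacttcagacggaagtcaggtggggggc
Socs3: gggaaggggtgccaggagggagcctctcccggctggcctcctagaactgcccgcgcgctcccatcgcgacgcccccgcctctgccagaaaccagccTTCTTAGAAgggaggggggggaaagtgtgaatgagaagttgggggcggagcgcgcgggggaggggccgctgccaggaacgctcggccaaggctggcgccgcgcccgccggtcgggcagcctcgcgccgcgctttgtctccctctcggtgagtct
Il11: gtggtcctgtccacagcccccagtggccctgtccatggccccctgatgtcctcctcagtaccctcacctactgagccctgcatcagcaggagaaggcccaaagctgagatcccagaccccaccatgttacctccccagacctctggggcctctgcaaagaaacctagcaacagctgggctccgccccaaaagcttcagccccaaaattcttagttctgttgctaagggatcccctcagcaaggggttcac

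The Il6 sequence held 1 match each to the AP-1 letters (TGAGTCA, 249 to 243 bases before the start), the C/EBP letters (TTGTGCAA, 128 to 121 bases before) and the NF-kB letters (GGGATTTTCC, 44 to 35 bases before). It thus matched 3 of the 6 motifs, the C/EBP one on the reverse strand. The Lif sequence held 1 AP-1 match (TGACTCA, 228 to 222 bases before), and the Socs3 sequence held 1 STAT match (TTCTTAGAA, 154 to 146 bases before). The Il11 sequence held none, and neither did the corresponding windows of Il6st, Il6ra, Il11ra1, Lifr and Osmr. The windows of Il11ra1 (chr4:41760193-41760442) and Osmr (chr15:6874314-6874563) also lie inside the loci given for these genes. A match says only that these letters are present in the window.

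Among the receptor chains, Il6st alone was called as higher. Il6st (ENSMUSG00000021756, chromosome 13, 112464070 to 112510086, plus strand) encodes gp130 and had 2736, 2318 and 2455 counts alone and 4404, 4321 and 3955 counts with Th17 cells. The lowest cocultured library exceeded the highest lone library by a wide margin. Its level rose from 201 ± 15.7 to 323 ± 19.7 CPM (SD, n = 3 each; log2FC 0.68 with SE 0.0763, adjusted p = 0.000126 in edgeR), a 1.60-fold change that remained below the limit of 2.

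Osmr, the oncostatin M receptor chain, moved in the opposite direction. Osmr (ENSMUSG00000022146, chromosome 15, 6813577 to 6874969, minus strand) had 3514, 3528 and 3213 counts alone and 2792, 2813 and 2981 counts with Th17 cells. Its CPM values lay between 272 and 279 alone and between 208 and 227 after coculture, without overlap. The decrease was small, with a log2 fold change of −0.33 (standard error 0.0581, 95% interval −0.46 to −0.20, adjusted p = 0.00198 in edgeR).

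Il11ra1, the alpha chain that binds interleukin-11, was lower while the gene of its ligand was higher. Il11ra1 (ENSMUSG00000073889, chromosome 4, 41699989 to 41769474, plus strand) had 277, 249 and 240 counts alone and 167, 165 and 205 counts with Th17 cells. All cocultured libraries were below all lone libraries, at 12.4 to 15.6 CPM against 19.7 to 21.5 CPM. The log2 fold change was −0.58 (standard error 0.118, adjusted p = 0.00418 in edgeR), and limma on log2(FPKM + 1) gave −0.38. An exon of Il11ra1 overlaps Ccl27a on the opposite strand, and Il11ra2 is a close copy of it, so reads of these genes may not be separable.

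Il6ra, the interleukin-6 alpha chain, showed no detected difference. Il6ra (ENSMUSG00000027947, chromosome 3, 89864059 to 89913196, minus strand) had 214, 185 and 215 counts alone and 196, 208 and 175 counts after coculture. The groups overlapped, and the log2 fold change was −0.16 (standard error 0.128, 95% interval −0.45 to 0.13, adjusted p = 0.365 in edgeR). It overlaps an antisense gene.

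Lifr, the LIF receptor chain, was low and varied most between libraries. Lifr (ENSMUSG00000054263, chromosome 15, 7129559 to 7197489, plus strand) had 142, 73 and 70 counts in lone libraries and 212, 161 and 92 counts in cocultured libraries. The first lone library lay above the third cocultured one, so the groups overlapped, and the SD was 39.5% of the mean alone and 37.6% with Th17 cells. The log2 fold change of 0.64 did not pass the test (standard error 0.329, 95% interval −0.11 to 1.38, adjusted p = 0.163 in edgeR). This call depended on single libraries. Leaving out lone replicate 1 gave 1.01 (adjusted p = 0.0488 in edgeR), leaving out cocultured replicate 3 gave 0.91 (adjusted p = 0.0337 in edgeR), and leaving out cocultured replicate 1 gave 0.37 (adjusted p = 0.446 in edgeR).

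**Figure D2:**
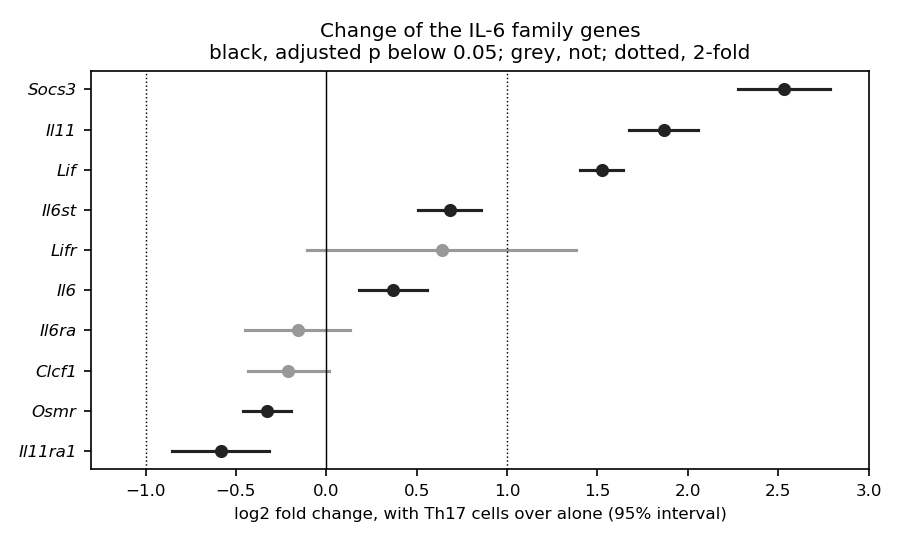
Log2 fold change of each family gene, with Th17 cells over alone, with its 95% interval from the edgeR fit. Socs3 (2.53), Il11 (1.87) and Lif (1.52) lie wholly beyond the dotted line of a 2-fold change, and the intervals of Lifr, Il6ra and Clcf1 include 0.

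To compare levels between genes, the deposited FPKM values, which are scaled to gene length, were ordered within each group. The lengths behind these values were not checked against the transcripts present. The order, ranks and sums of FPKM in both groups rest on these lengths. In lone fibroblasts Il6 was the highest member, at 202 ± 19.98 FPKM (SD, n = 3), and ranked 171 among 34745 genes. Lif followed at 65.5 ± 0.411 FPKM and Il11 at 24.6 ± 0.469 FPKM. The signalling chains Osmr and Il6st stood at 18.7 ± 0.247 and 11.2 ± 0.875 FPKM, and Socs3 at 10.4 ± 0.399 FPKM. Il6st and Socs3 were the only neighbours in this order whose libraries overlapped. Clcf1 (7.42 ± 0.759 FPKM), Il11ra1 (3.17 ± 0.139 FPKM), Il6ra (1.47 ± 0.162 FPKM) and Lifr (0.619 ± 0.243 FPKM) came last.

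With Th17 cells Il6 remained first, at 273 ± 17.9 FPKM, and ranked 112. Lif reached 197 ± 7.35 FPKM and moved from rank 560 to rank 161 among all genes. Il11 reached 93.9 ± 10.7 FPKM and moved from rank 1706 to rank 387. Socs3 rose past Il6st and Osmr to 63.0 ± 10.3 FPKM and ranked 608, after 3709 in lone cultures. Il6st, at 18.8 ± 1.04 FPKM, now stood above Osmr, at 15.6 ± 0.734 FPKM, which reversed their order in lone fibroblasts. Il6ra (1.37 ± 0.133 FPKM) and Lifr (1.01 ± 0.378 FPKM) were the only neighbours that overlapped. Clcf1 and Il11ra1 stayed between them and Osmr, at 6.70 ± 0.545 and 2.21 ± 0.287 FPKM. The FPKM of the 4 ligands summed to 280 to 321 alone and 546 to 583 after coculture, whereas the 5 receptor chains summed to 34.0 to 36.0 and 38.3 to 40.0.

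**Figure D3:**
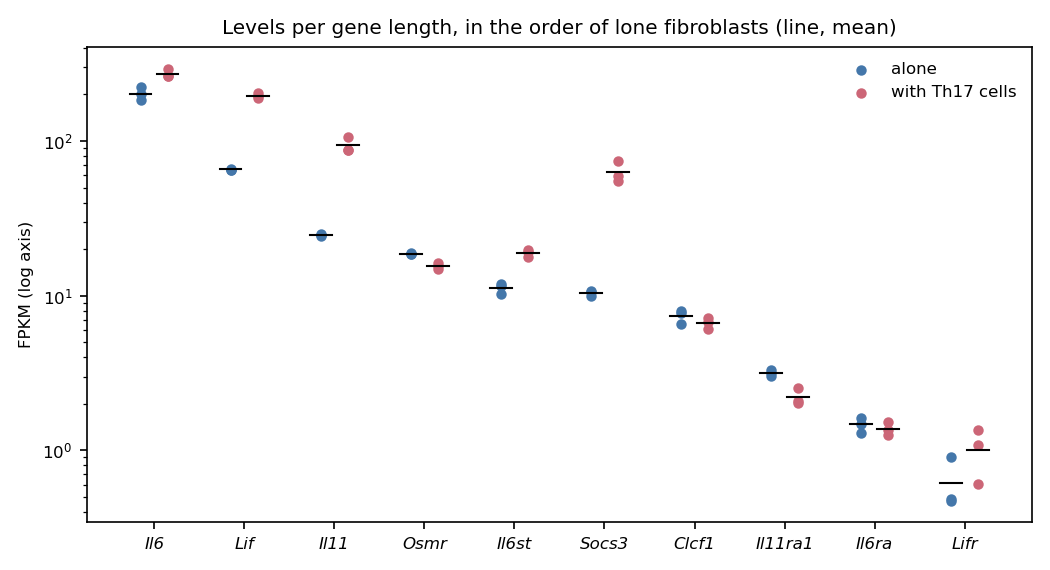
FPKM of each family gene on a log axis, in the order of lone fibroblasts, with a point for each library and a line at the mean. The 3 ligands Il6, Lif and Il11 head the order in both groups, and Socs3 moves from 10.4 to 63.0 FPKM.

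The balance between members was next measured as the ratio of their FPKM values within a library, which does not depend on how libraries are scaled. The size of a ratio rests on the gene lengths behind the FPKM values, but its change between groups does not. The 10 ratios were chosen after counts had been seen. Lif stood at 0.293 to 0.355 of Il6 in lone libraries and at 0.664 to 0.777 of Il6 in cocultured libraries. The ratio of Il11 to Il6 was 0.110 to 0.132 alone and 0.298 to 0.404 with Th17 cells. Il6 therefore formed a smaller part of the summed ligand FPKM after coculture. Lif and Il11 themselves kept closer to each other, with a ratio of 2.62 to 2.69 alone and 1.93 to 2.23 after coculture. Clcf1 was 0.0995 to 0.122 of Lif alone and 0.0321 to 0.0351 with Th17 cells.

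On the receptor side, the ratio of Il6st to Osmr was 0.538 to 0.637 in lone libraries and 1.09 to 1.29 in cocultured libraries. Il6st exceeded Il6ra 7.14-fold to 7.99-fold alone and 13.0-fold to 14.1-fold with Th17 cells. It exceeded Il11ra1 3.35-fold to 3.68-fold alone and 6.94-fold to 9.49-fold after coculture. Socs3 was 0.846 to 1.06 of Il6st in lone libraries and 2.89 to 4.23 of Il6st in cocultured libraries. The ratio of Il6 to Il6ra was 113 to 154 alone and 173 to 216 after coculture. For these ratios the groups did not overlap, whereas the ratio of Osmr to Lifr overlapped, at 20.6 to 40.2 and 10.96 to 27.0. An exact two-sided permutation test gave p = 0.1 for 9 of the 10 ratios, the smallest p that 3 against 3 libraries allow, and p = 0.2 for Osmr to Lifr. Adjusted over the 10 ratios by Benjamini-Hochberg these were 0.111 and 0.2 (exact permutation test), so none could pass 0.05.

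**Figure D4:**
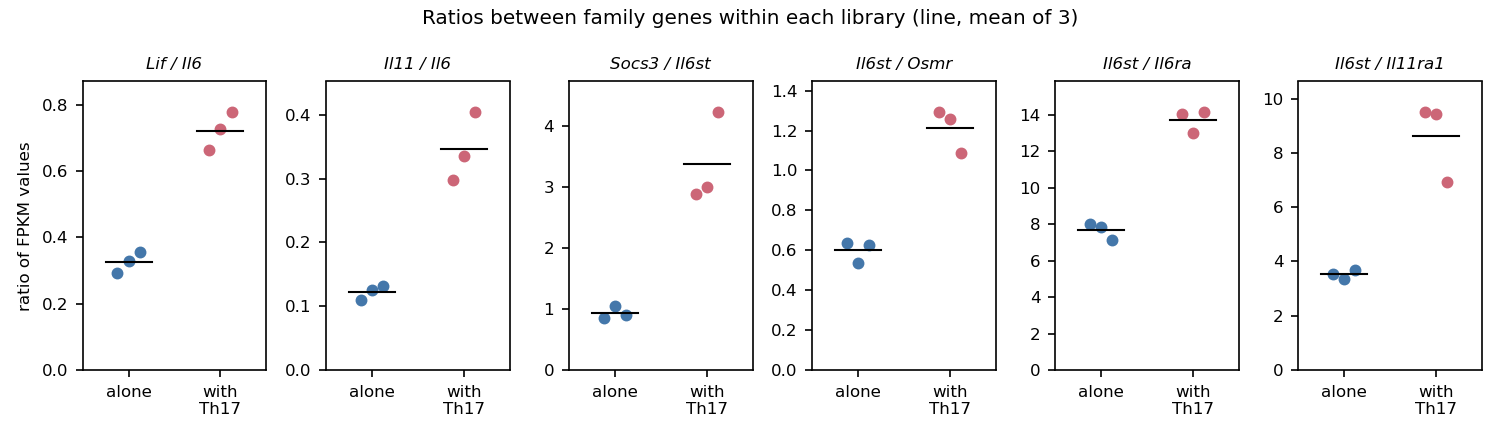
Ratios of FPKM values between pairs of family genes within each library, with points for libraries and a line at the mean of 3. In each of the 6 panels every cocultured library lies above every lone library, as for Lif to Il6 (0.293 to 0.355 alone and 0.664 to 0.777 with Th17 cells).

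Of 12 other ligands and receptors of the family, 5 had enough counts to be tested, with 1 higher, 2 lower and a median log2 fold change of −0.55, where 17.1% of all genes tested were higher and 20% lower. Cntfr, the ciliary neurotrophic factor receptor alpha chain, was lower, with a log2 fold change of −0.78 (standard error 0.178, adjusted p = 0.00787 in edgeR). Cntf, a ligand of Cntfr, had 16, 16 and 17 counts alone and 0, 0 and 4 counts after coculture (adjusted p = 0.00442 in edgeR). Its exons overlap those of Zfp91 on the same strand. Osm, the gene of oncostatin M, had 4, 4 and 5 counts alone and 0 in each cocultured library. The filter on low counts removed it, and without that filter it was called lower (adjusted p = 0.0221 in edgeR). Ctf2, Ebi3 and Il31 had 0 counts in all libraries, where a count of 0 allows up to 3 counts, or 0.223 to 0.254 CPM.

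The next group held the signal transducers below the receptors. Of 18 genes for Janus kinases, STATs, adaptors, inhibitors and receptor sheddases, 2 were higher and 4 lower, 12 were not called, and the median log2 fold change was −0.069. This is 6 called of 18, close to the 37.1% called among all genes tested. The kinase genes Jak1 (−0.03, SE 0.056, adjusted p = 0.757 in edgeR), Jak2 (−0.11, SE 0.0586, adjusted p = 0.166 in edgeR) and Tyk2 (0.23, SE 0.104, adjusted p = 0.11 in edgeR) did not pass. Tyk2 passed with library size as the only scaling (adjusted p = 0.0456 in edgeR) and without cocultured replicate 3 (adjusted p = 0.0226 in edgeR). Stat3 was slightly lower, from 247 ± 10.8 to 194 ± 9.75 CPM (SD, n = 3 each; log2FC −0.34 with SE 0.0643, adjusted p = 0.00271 in edgeR).

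Among the inhibitors of cytokine signalling, Cish and Socs1 were also higher. Cish, an inhibitor known as a STAT5 target, had 247, 116 and 250 counts alone and 1787, 1089 and 1137 counts after coculture (log2FC 2.63 with SE 0.286, adjusted p = 0.000107 in edgeR). Socs1 rose by 0.70 in log2 terms (standard error 0.155, adjusted p = 0.00663 in edgeR). Socs2 had a log2 fold change of −0.58 (standard error 0.177, adjusted p = 0.03 in edgeR), but lost its call without lone replicate 1, 2 or 3 or cocultured replicate 1 or 2, with adjusted p in edgeR between 0.0592 and 0.109 in those 5 fits, and in limma. Adam17, a protease that sheds the interleukin-6 receptor from the cell surface, was lower at −0.48 (standard error 0.0669, adjusted p = 0.00051 in edgeR). Adam17, Stat3, Jak1, Tyk2 and Cish each overlap a gene on the opposite strand.

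Genes known as STAT3 targets in other cells did not move in 1 direction. Of 26 such genes 10 were higher, 5 lower and 11 not called, beside 17.1% higher and 20% lower among all genes tested. Their median log2 fold change was 0.034. The highest were Serpina3n, an acute phase protease inhibitor, which rose from 7.40 ± 2.03 to 52.0 ± 5.78 CPM (SD, n = 3 each; log2FC 2.82 with SE 0.174, adjusted p = 2.5e-06 in edgeR), Lcn2 (2.07), Ccnd1 (1.98) and Pim3 (0.92). The lowest was Lbp, the lipopolysaccharide-binding protein, with 46, 33 and 42 counts alone and 2, 0 and 0 counts after coculture (adjusted p = 7.3e-05 in edgeR). Irf1 (−1.54), Il4ra (−0.97) and Saa3 (−0.86) were the next lowest. Saa3 had 10779, 11312 and 19622 counts after coculture, so replicate 3 stood apart, and Ccnd1, Irf1 and Il4ra each overlap a gene on the opposite strand. Irf1 is also induced by interferon and Lcn2 by interleukin-17, so the list is not specific to STAT3.

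Regulators of the Il6 transcript itself were examined last. Of 12 genes 3 were higher, 1 was lower and 8 were not called, with a median log2 fold change of −0.082. The 4 called of 12 were close to the 37.1% of all genes tested. Zc3h12a encodes Regnase-1, a nuclease that degrades Il6 mRNA, and rose from 121 ± 2.16 to 262 ± 6.05 CPM (SD, n = 3 each; log2FC 1.11 with SE 0.0562, adjusted p = 6.78e-07 in edgeR). Arid5a, which encodes a protein known to stabilise Il6 mRNA, dropped from a mean of 33.5 ± 6.01 to 12.1 ± 4.58 CPM (SD, n = 3 each; log2FC −1.47 with SE 0.262, adjusted p = 0.00205 in edgeR). Nfkb1, an NF-kB subunit gene, rose by 0.996 in log2 terms (standard error 0.0588, adjusted p = 1.85e-06 in edgeR), and Elavl1, the gene of the RNA-binding protein HuR, by 0.28, with an exon that overlaps Ccl25 on the opposite strand (standard error 0.0634, adjusted p = 0.00796 in edgeR). The receptor genes Il17ra (−0.08, SE 0.092, adjusted p = 0.517 in edgeR) and Il17rc (−0.18, SE 0.0875, adjusted p = 0.132 in edgeR), through which interleukin-17 acts, did not pass.

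**Figure D5:**
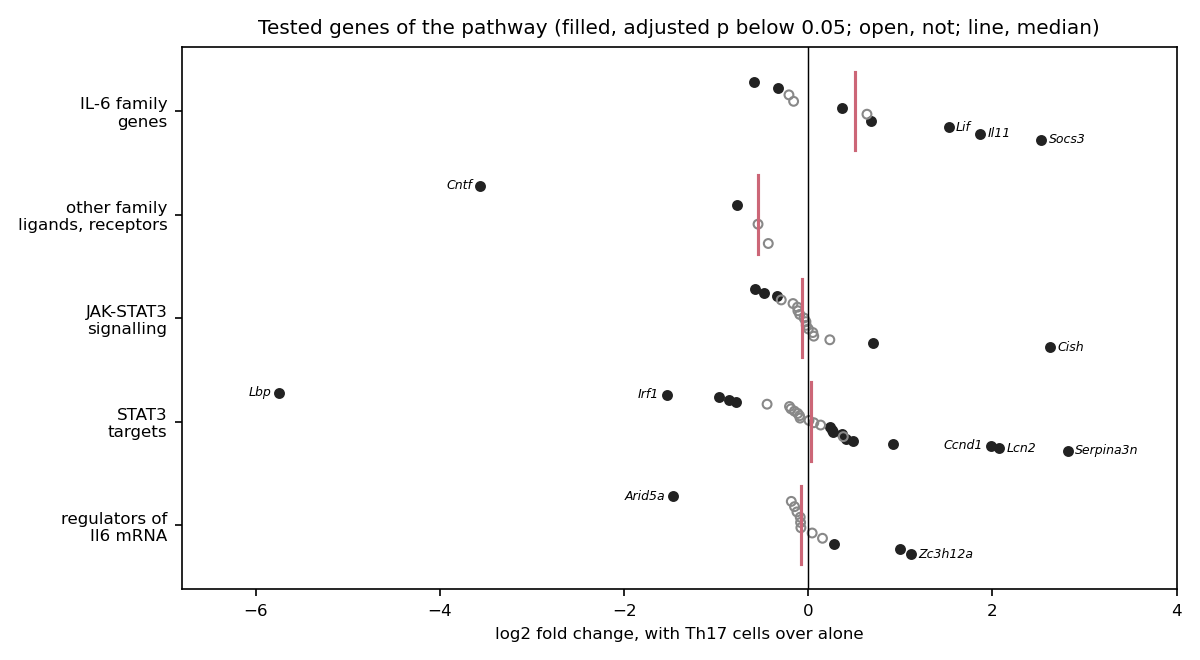
Log2 fold change of tested genes of the family and of the 4 related lists, with filled points for an adjusted p below 0.05. Lines are medians over all tested genes, including some that have no point, and are 0.50 for the family, −0.55 for other ligands and receptors, −0.069 for JAK-STAT3 signalling, 0.034 for STAT3 targets and −0.082 for regulators of Il6 mRNA.

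The genes whose pattern was most like that of Il6 over the 6 libraries were Lrsam1, Dnajb14, Ddx31, Mpp5 and Atg4c. Likeness was the root mean square difference of log2 CPM after each gene was centred on its own mean, which was 0.0382 for Lrsam1 and 0.048 for Atg4c. Since likeness set the choice, their log2 fold changes (0.30 to 0.41) were bound to lie near the 0.37 of Il6. Atg4c was not called (adjusted p = 0.0658 in edgeR), and of the other 4, which were called, only Mpp5 kept its call under all 14 alternatives. No member of the family was among them.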

How the data were processed

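RNA of the fibroblasts was sequenced on an Illumina NovaSeq from VAHTS libraries. Per the study's methods and the submitters' processing notes, reads were filtered by the authors (Seqtk), mapped to mm10 with HISAT2 2.0.4 and counted per gene with StringTie 1.3.3b, and raw counts were deposited. Use of strand was not given in the sources used here. The authors also deposited FPKM values, and in 8910 genes with at least 100 counts these equalled the count divided by library total and 1 gene length, without a TMM factor.

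Samples were grouped by their titles, and columns matched by their descriptions. For 59 symbols listed more than once, the row holding the most counts represents the gene. Counts were filtered with filterByExpr (minimum count 10), normalised by TMM, and fitted by glmQLFit with glmQLFTest in edgeR 4.0.16 (R 4.3.3), with Benjamini-Hochberg adjustment over 13088 genes. The SE is the size of the log2 fold change divided by the square root of F. Exon overlaps came from GENCODE vM21 (GRCm38). The alternatives included DESeq2 1.42.0 and limma 3.58.1. The test was also run on simulated counts, with an outcome not reported here. Such a run cannot show whether libraries of a group were separate cultures. Intervals and floors cover counting or library spread only. Members, lists and ratios were chosen with earlier results of these data known. The genes named are all members, up to the 4 highest and 4 lowest called genes of each list, Jak1, Jak2, Tyk2 and Stat3, the 5 genes most like Il6, and genes at 0. Il17ra, Il17rc, Osm, Adgre1, Cd14, Clec7a, Flt1, Kdr, Lck, Trac and Icos were named after their values were seen. Some genes that this rule covers are not reported here.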

Additional observations from a re-analysis of the deposited data

How the results depend on the processing

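The counts of called genes and the fold changes of named genes were recomputed under 14 alternatives: relative log expression, upper quartile or library size scaling, no filter or 10 counts in every library, DESeq2, limma on log2(FPKM + 1), a replicate block, and leaving out each library. Cntf and Lbp had 13, since the minimum of 10 counts in every library removed them, and the ratios, ranks and motif matches had none. The calls of 9 members were kept under all 14, with log2 fold changes from 2.40 to 2.62 for Socs3, 1.78 to 1.93 for Il11, 1.4996 to 1.59 for Lif and 0.30 to 0.44 for Il6. Lifr was the exception, and its values without single libraries stand beside its result. The number of members called was 7 or 8 in every fit. The deviations of same-numbered libraries correlated by −0.026 to 0.016, which cannot show whether these libraries shared a culture or animal. With the replicate block 8 members were called, and Lifr had a log2 fold change of 0.64 (adjusted p = 0.0393 in edgeR). Library size scaling moved the median of all genes to 0.067, and the share of lower genes among all called genes from 53.8% to 43.9%, with 44.2% in limma. STAT3 targets called numbered 13 to 17. Without the filter on low counts 4 other ligands and receptors were called instead of 3. Genes near the floor, such as Osm, have little precision at this depth.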

Other observations

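Several other genes of the interleukin-6 family were at or near 0 in these cultures. Il27 was at 0 in all lone libraries, with 0, 3 and 0 counts in the cocultured ones, and Il31ra had 0 in each lone library and 0, 1 and 2. Il11ra2 had 6, 1 and 11 counts alone and 0, 4 and 0 after coculture. Il27ra was tested and differed by −0.43 in log2 terms (standard error 0.275, adjusted p = 0.251 in edgeR). These genes were named after their values had been seen.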
